A study of Homo sapiens with 4 samples.

Results

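The replication-dependent histone genes supply the histones that package newly copied DNA. They were chosen by symbol as the genes for linker histone H1 (H1-1 to H1-6) and for the core histones H2A, H2B, H3 and H4 in the numbered H2AC, H2BC, H3C and H4C series. The count files hold 69 such symbols, and 46 of them had 10 or more counts in at least 2 libraries. The 46 were 5 of 6 H1 genes, 11 of 17 H2A genes, 12 of 18 H2B genes, 7 of 13 H3 genes and 11 of 15 H4 genes. The symbols alone defined the family, but the count limit used all 4 libraries, and H4C11 passed it only through its DMSO counts.

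RNA-seq was carried out on H1792, an established human lung cancer cell line labelled as wild type in genotype. Cells were kept for 96 h with ACBI1 or with its solvent DMSO as the control, with 2 libraries in each group. ACBI1 is a degrader that brings the SWI/SNF chromatin remodelling proteins SMARCA2, SMARCA4 and PBRM1 to the VHL ubiquitin ligase. The labels give its dose as 1 mM, which the counts cannot check, and nothing says whether the 2 libraries of a group came from separate cultures, so that p-values measure only the spread between these libraries.

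Replication-dependent histone genes are transcribed mainly while DNA is being copied, and their messenger RNAs lack the poly(A) tail of other messages. The transcript ends just after a short stem-loop, which is bound by the stem-loop binding protein SLBP and is needed for cutting, export, translation and timely decay of the message. Some of these genes can also give longer, polyadenylated transcripts that run past the stem-loop. Whether RNA was selected by its tail is not given in the sources used here, and such a selection would bear on how much of each gene is counted.

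The stem-loop is shown first because it is the feature that sets these messages apart. A stem-loop was found in GENCODE release 29 transcripts of 29 of the 69 symbols. Most of the other models hold a length that coding sequence alone would give, and no match says only that these letters are not in the model. The capitals mark the paired arms and the lower-case letters the loop.
H2BC21: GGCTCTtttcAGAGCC
H2BC5: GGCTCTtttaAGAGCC
H4C8: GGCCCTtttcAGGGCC
H4C14: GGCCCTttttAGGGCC
The form printed for H2BC21 was found in 4 H2A, 8 H2B and 3 H3 genes, and the form printed for H2BC5 in 3 H2B genes and 1 H3 gene. The form printed for H4C8 was found in 5 H4 genes and that printed for H4C14 in 3. The first arm of the H4 genes thus differed from that of the H2A, H2B and H3 genes. In 23 of the 29 genes at least 1 annotated transcript ran over 100 bases past the stem-loop.

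The promoters are shown for H2BC21, the only gene called, for H2BC11, the gene with the largest positive log2 change, and for H4C8, which had the most counts of the H4 genes. Each is the 250 bases before the RefSeq start on GRCh38.p14, read along the strand of the gene. Capitals mark the CCAAT box, the TATA box (searched as the letters TATAAA) and the octamer (searched as ATTTGCAT), each matched on either strand.
H2BC21 (chr1:149886683-149886932, minus strand): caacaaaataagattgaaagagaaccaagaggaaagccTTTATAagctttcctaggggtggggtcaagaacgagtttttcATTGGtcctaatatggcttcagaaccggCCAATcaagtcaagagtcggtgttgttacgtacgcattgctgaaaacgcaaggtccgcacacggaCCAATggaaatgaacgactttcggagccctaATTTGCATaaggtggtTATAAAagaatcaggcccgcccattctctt
H2BC11 (chr6:27132796-27133045, minus strand): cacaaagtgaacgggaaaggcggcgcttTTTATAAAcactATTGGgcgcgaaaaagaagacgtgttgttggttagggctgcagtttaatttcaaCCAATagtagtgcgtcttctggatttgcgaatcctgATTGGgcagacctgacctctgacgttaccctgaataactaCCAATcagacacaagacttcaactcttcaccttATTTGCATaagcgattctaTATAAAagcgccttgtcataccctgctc
H4C8 (chr6:26285535-26285784, minus strand): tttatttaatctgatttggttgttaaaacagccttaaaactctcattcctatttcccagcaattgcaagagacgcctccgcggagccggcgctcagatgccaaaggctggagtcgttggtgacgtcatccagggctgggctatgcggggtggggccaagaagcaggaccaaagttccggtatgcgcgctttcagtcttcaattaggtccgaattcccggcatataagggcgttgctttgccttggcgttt
H2BC21 and H2BC11 each held an ATTTGCAT octamer, the letters bound by the OCT factors, a few bases upstream of a TATAAA match. The octamer began 46 bases before the start in H2BC21 and 47 bases before it in H2BC11. The 250 bases of H4C8 held no match to these letters, and a TATA box spelled in other letters was not searched for.

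In windows from 250 bases before to 50 bases after the start, the octamer was found in 14 of 18 H2B genes (77.8%) and 11 of 16 H2A genes (68.8%). It was found in 1 of 11 H3 genes and in no H1 or H4 gene, against 1.80% of 27305 genes with a window. The H3 match was in H3C4, whose RefSeq start is the same base as that of H2AC7 on the same strand. H3C4 and H2AC7 thus have the same window, and no separate H3 promoter is shown to hold an octamer. CCAAT was present in every H1, H2A, H2B and H3 window of the table, in 3 of 13 H4 windows (23.1%) and in 35.7% of all genes. TATAAA was present in 42 of 64 windows of these histone genes (65.6%) and in 12% of all genes. Windows of neighbouring H2A and H2B genes on opposite strands can overlap, so that 1 octamer can be counted in both types. A match describes letters and is not evidence of binding.

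Gene counts summed to 64281850 to 86010100 per library, of which the 69 histone symbols held 0.0397% and 0.0688% with DMSO and 0.0426% and 0.0411% with ACBI1, replicate 1 first, as in all pairs of values given here. By the Clopper-Pearson method the 95% intervals, for counting error only, were 0.0393% to 0.0401%, 0.0682% to 0.0694%, 0.0421% to 0.0430% and 0.0406% to 0.0416%. No intervals overlapped, but they do not measure how far libraries of the same group vary. By value DMSO replicate 2 lay furthest from the other 3 libraries, with 701 CPM on these genes against 403 to 415. CPM are counts scaled to the same library total, with TMM factors. Of the markers fixed for lung and epithelium, KRT8 and KRT18 were present (58.7 to 192 CPM), while CDH1 was near 0 (4 to 16 counts a library) and was not tested. KRT8, KRT18 and KRT19 were called lower with ACBI1 (log2 changes -1.42, -1.14 and -2.51), and EPCAM was not called (log2 change 1.32). NKX2-1 was at 0 counts in each library, and SFTPC had 1 count in all. The summed markers of other cells were 340 and 749 CPM with DMSO and 62.5 and 210 CPM with ACBI1, most of it COL1A1, which was not called. PECAM1 was at 12.2 and 48.1 CPM with DMSO and at 0.0112 and 0.0458 CPM with ACBI1, DCN was at 3.68 and 7.55 CPM against 0.0447 and 0.107 CPM, and VWF was at 0.295 and 0.320 CPM against 0 counts, and these 3 of the 7 markers were called lower. CD3E was at 0, and PTPRC and CD68 reached at most 0.0278 and 0.101 CPM. The sum, PECAM1 and DCN were highest in DMSO replicate 2 as well, and their part in the histone results was not tested. SMARCA2, SMARCA4 and PBRM1 transcripts do not check a protein degrader.

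Across the 46 histone genes, 1 was called at an adjusted p under 0.05 (edgeR quasi-likelihood test, Benjamini-Hochberg over 19159 genes). That is 2.17%, against 17.4% of all genes tested. The called gene was H2BC21, which was lower with ACBI1, and 10.6% of all genes were called lower. At an unadjusted p under 0.05 there were 6 histone genes, each lower, or 13%, against 33.9% of all genes. The 6 include H4C11, for which the count limit favoured a lower value. The median log2 change of the 46 was -0.39, against 0.01 over all genes tested, with 33 changes negative and 13 positive. Without DMSO replicate 2 that median was 0.06, and without each of the other libraries it ran from -0.70 to -0.21. The ACBI1 libraries lay wholly below the DMSO libraries for 13 histone genes and wholly above for 4. These 17 genes (37%) compare with 63.2% of all genes whose groups did not overlap. The median standard error of the log2 change was 0.44 for the histone genes and 0.28 over all genes.

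**Figure D1:**
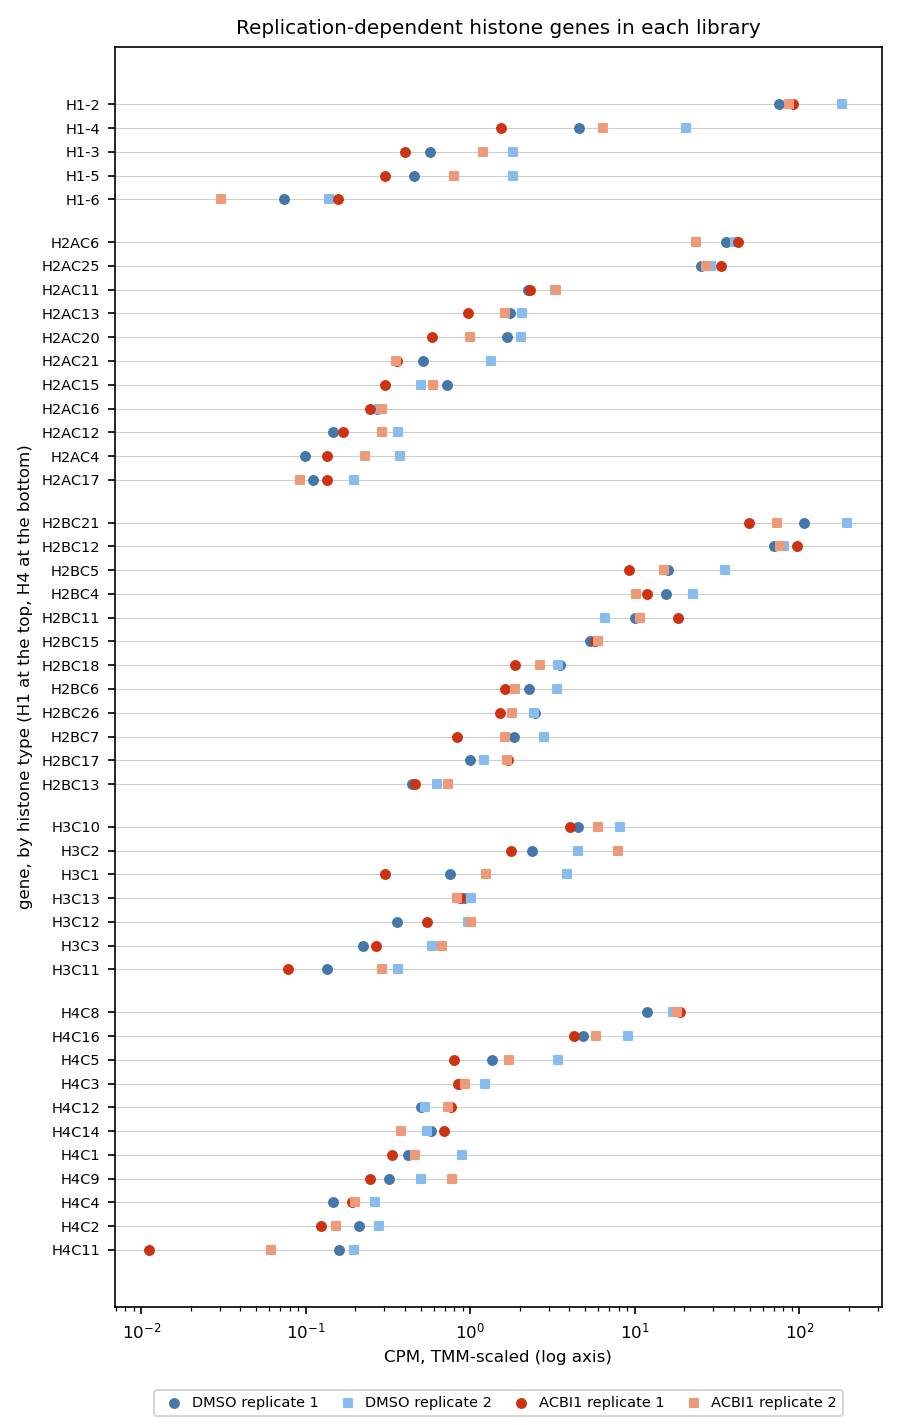
Each row is a histone gene and each point its CPM (log axis) in a library, with circles for replicate 1, squares for replicate 2, blue for DMSO and red for ACBI1. For 29 of the 46 genes the points of the groups overlap, and DMSO replicate 2 is often the rightmost point.

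The call count turned on single libraries. Without DMSO replicate 1, 8 of the 46 were called, 7 lower and 1 higher, when 21.3% of all genes were called. Without DMSO replicate 2, none was called, when 12.8% of all genes were. None was called without ACBI1 replicate 1 (6.89% of all genes), and H2BC21 alone was called without ACBI1 replicate 2 (8.84% of all genes). The group with 1 library left is then assumed to vary like the other.

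**Figure D2:**
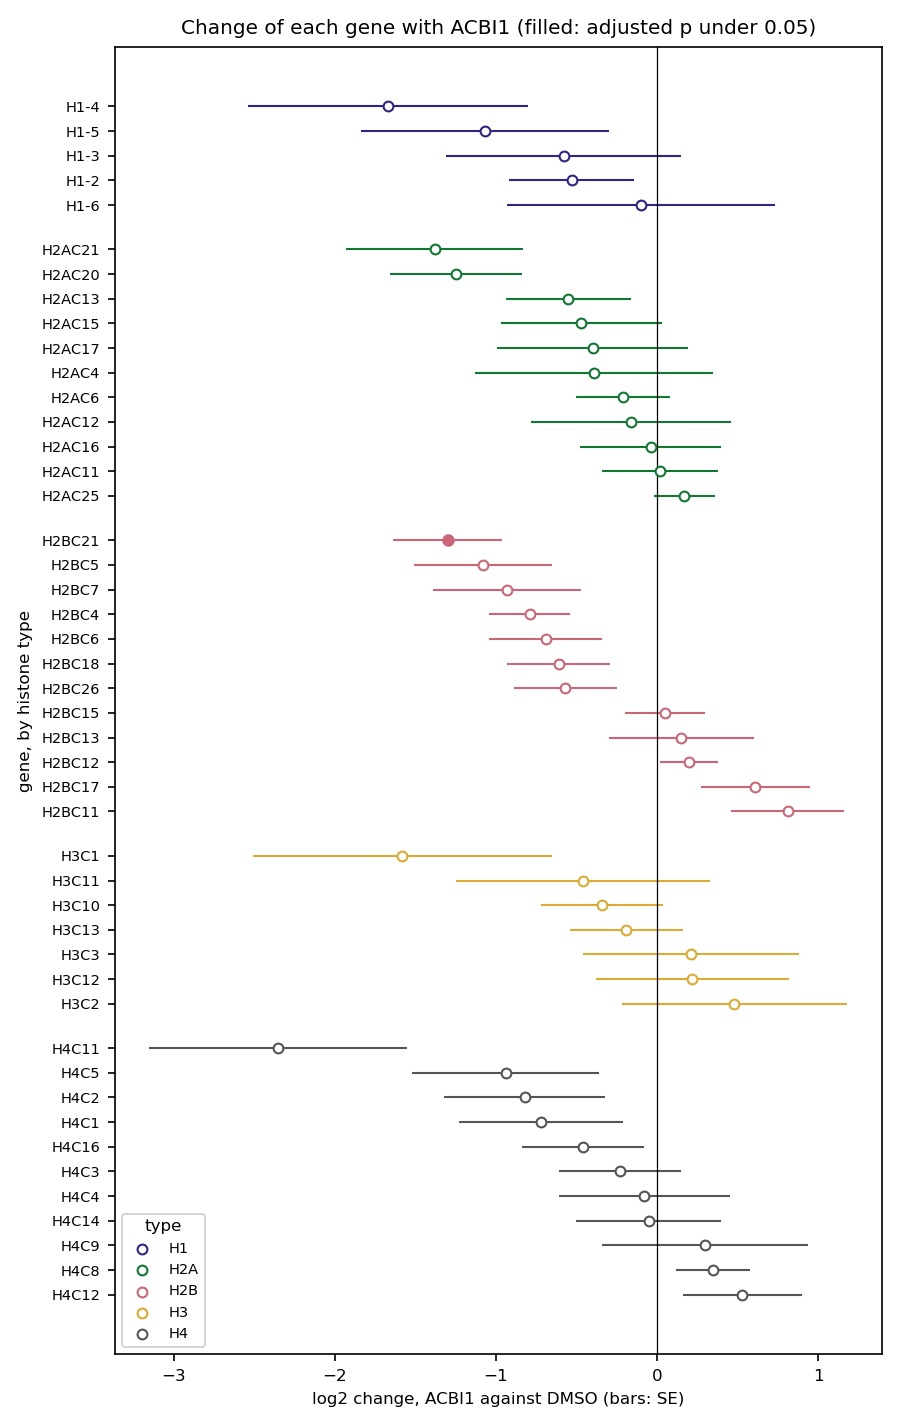
Points show the log2 change with ACBI1 of each histone gene and bars its SE, by histone type, with the called gene filled. The only filled point is H2BC21 at -1.30, and H2BC11 lies furthest on the positive side at 0.81.

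H2B genes held the largest number of counts. H2B pairs with H2A, and a pair of such dimers completes each nucleosome. For 9 of the 12 H2B genes the groups did not overlap, with ACBI1 below DMSO in 7 and above it in 2, or 75% against 63.2% of all genes tested. The median log2 change was -0.59. H2BC21 (chr1:149884459-149886682), whose GENCODE transcript runs 1729 bases past the stem-loop, was at 106 and 195 CPM with DMSO and at 49.3 and 73.4 CPM with ACBI1. Both ACBI1 libraries lay below both DMSO libraries. The fall was 2.46-fold, a log2 change of -1.30 (SE 0.34, edgeR adjusted p 0.0477). The call lay close to the threshold: without DMSO replicate 2 the log2 change was -0.80 (edgeR adjusted p 0.0604), and without ACBI1 replicate 1 it was -1.03 (edgeR adjusted p 0.167).

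The next 2 H2B genes in size of change with at least 10 CPM in DMSO were not called. H2BC5 was at 15.8 and 35.4 CPM with DMSO and at 9.17 and 15 CPM with ACBI1. Its highest ACBI1 library came close to its lowest DMSO library, and the log2 change was -1.08 (SE 0.43, edgeR adjusted p 0.134). Without DMSO replicate 1 it was called (log2 change -1.55, edgeR adjusted p 0.00227), and without DMSO replicate 2 the log2 change was -0.39 (edgeR adjusted p 0.524). H2BC4 was at 15.4 and 22.6 CPM with DMSO and at 11.8 and 10.1 CPM with ACBI1, a log2 change of -0.79 (SE 0.25, edgeR adjusted p 0.0815). Its groups were separate as well.

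Other H2B genes lay on the other side. H2BC11 was at 10.0 and 6.59 CPM with DMSO and at 18.3 and 10.7 CPM with ACBI1, without overlap (log2 change 0.81, SE 0.35, edgeR adjusted p 0.161). Of the 46 genes, only H2BC11 and H4C14 had less in replicate 2 than in replicate 1 of both groups. H2BC17 was at 0.995 and 1.21 CPM with DMSO and at 1.69 and 1.68 CPM with ACBI1, on 81 to 151 counts a library (edgeR adjusted p 0.256). H2BC12, which had the most H2B counts after H2BC21, was at 70.0 and 80.6 CPM with DMSO and at 96.6 and 76.5 CPM with ACBI1. The groups of H2BC12 overlapped (log2 change 0.20, SE 0.18, edgeR adjusted p 0.488), and 74.1% of the 50-base stretches of its GENCODE transcript also occur in another gene.

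H2BC21 weighed heavily in the H2B total. It held 45.4% and 54.1% of all H2B counts with DMSO, and 24.8% and 36.3% with ACBI1. The summed H2B counts were 235 and 360 CPM with DMSO and 199 and 202 CPM with ACBI1, without overlap. The log2 ratio of the group means was -0.57, and without H2BC21 it was -0.07. The exact two-sided permutation test gave the smallest p that 2 against 2 libraries allow, which is above 0.05.

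**Figure D3:**
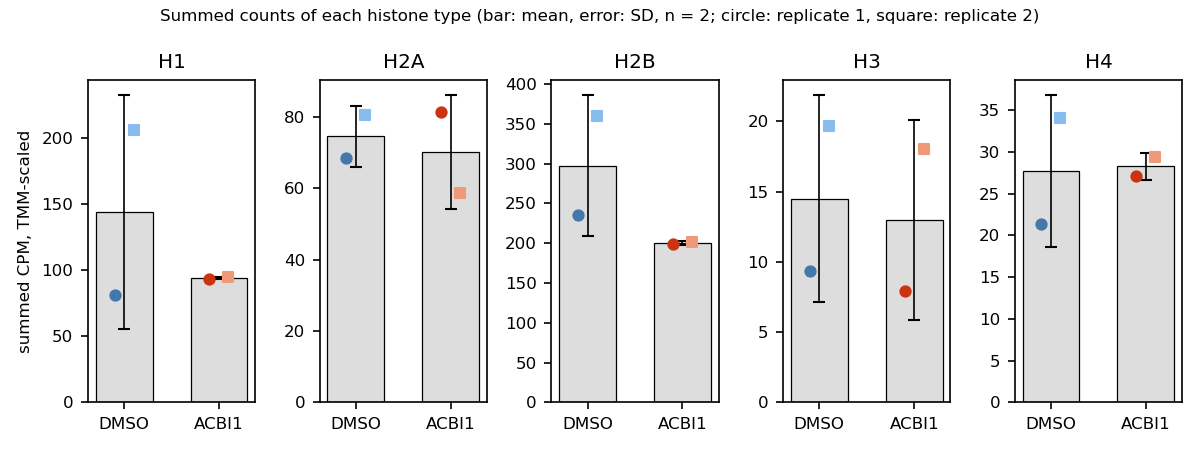
Bars show the mean summed CPM of each histone type by group, with the SD (n = 2) as error bars and each library as a point, on an axis from 0 in each panel. The H2B groups do not overlap, and for H1, H2B and H4 the DMSO libraries lie further apart than the ACBI1 libraries.

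H2A genes had mostly negative changes without a call. The median log2 change of the 11 was -0.39, with 9 negative. H2AC20 was at 1.67 and 2.04 CPM with DMSO and at 0.581 and 0.991 CPM with ACBI1, on 136, 147, 52 and 65 counts. The groups were separate without a call (log2 change -1.25, SE 0.41, edgeR adjusted p 0.0875), and 30.5% of its 50-base stretches are shared with another gene. H2AC21, its neighbour on chromosome 1, was at 0.516 and 1.33 CPM with DMSO and at 0.357 and 0.351 CPM with ACBI1 (log2 change -1.38, SE 0.55, edgeR adjusted p 0.139). Both genes lie beside H2BC21.

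The H2A genes with the most counts did not separate. H2AC6 was at 35.8 and 40.8 CPM with DMSO and at 42.6 and 23.6 CPM with ACBI1, so that the ACBI1 libraries lay on both sides of the DMSO libraries (edgeR adjusted p 0.661). H2AC25, from the small cluster near the end of chromosome 1, was at 25.1 and 28.9 CPM with DMSO and at 33.5 and 27.2 CPM with ACBI1 (edgeR adjusted p 0.566). Summed H2A counts were 68.6 and 80.7 CPM with DMSO and 81.4 and 58.8 CPM with ACBI1 (exact permutation p = 1, two-sided).

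Many H2A and H2B genes stand head to head and share the stretch between their starts. Among the tested genes with a matched RefSeq promoter, 7 such pairs were found, with starts 194 to 248 bases apart. H2AC12 (chr6:27147106-27147562) had no matched promoter and could not be paired. It lies beside H2BC12 (chr6:27138293-27146858), and their log2 changes were -0.16 and 0.20. In H2BC21 and H2AC20, with 236 bases between the starts, the log2 changes were -1.30 and -1.25. The count ratio of H2BC21 to H2AC20 was 63.7 and 95.4 with DMSO and 84.9 and 74.0 with ACBI1, so that the groups overlapped in it. In H2BC11 and H2AC11 the log2 changes were 0.81 and 0.02, with ratios of 4.46 and 2.03 in DMSO and 8 and 3.24 in ACBI1. In H2BC26 and H2AC25 they were -0.57 and 0.17, and the ratio was 0.0980 and 0.0843 with DMSO against 0.0450 and 0.0657 with ACBI1. In H2BC4 and H2AC6 they were -0.79 and -0.21, and the ratio was 0.430 and 0.554 against 0.277 and 0.427. The ratio of both these pairs was lower with ACBI1, without overlap. It was higher without overlap in H2BC13 and H2AC13 (0.255 and 0.304 against 0.477 and 0.449) and in H2BC17 and H2AC17 (9 and 6.21 against 12.6 and 18.3). H2AC17 had only 9 and 14 counts with DMSO and 12 and 6 with ACBI1. The 50-base stretches of H2AC17 were shared with another gene to 86.3% and those of H2AC13 to 62.3%, so both ratios are uncertain. Of the 7 pairs found, the sign was shared in 3 and opposite in 4, and the difference within a pair was not tested.

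H1 genes, which encode the linker histones that bind DNA between nucleosomes, differed widely between replicates. All 5 log2 changes were negative, none was called and no gene separated the groups. H1-2 was at 75.3 and 181 CPM with DMSO and at 91.1 and 86.1 CPM with ACBI1. Both ACBI1 libraries lay between the DMSO libraries, and the log2 change was -0.53 (SE 0.39, edgeR adjusted p 0.382), or 0.23 without DMSO replicate 2. H1-2 held 88.1% to 97.4% of all H1 counts. H1-4 was at 4.59 and 20.5 CPM with DMSO and at 1.53 and 6.41 CPM with ACBI1, which overlapped (log2 change -1.67, SE 0.87, edgeR adjusted p 0.232). Leaving out 1 library moved it from -0.22 (without DMSO replicate 2) to -3.04 (without ACBI1 replicate 2), and it was called without DMSO replicate 1 (-2.37, edgeR adjusted p 0.00612). Within each group of H1-4, replicate 2 was 4.46 and 4.19 times replicate 1. Summed H1 counts were 81.0 and 206 CPM with DMSO and 93.5 and 94.7 CPM with ACBI1 (exact permutation p = 1, two-sided).

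H3 and H4 together form the core tetramer of the nucleosome. The 7 H3 genes had a median log2 change of -0.19, none was called, and groups were separate for 1. H3C10, with the most H3 counts, was at 4.52 and 8.13 CPM with DMSO and at 4.02 and 5.99 CPM with ACBI1 (edgeR adjusted p 0.584). H3C1 was at 0.749 and 3.86 CPM with DMSO and at 0.302 and 1.25 CPM with ACBI1 (log2 change -1.58, SE 0.93, edgeR adjusted p 0.282). H3C2 was at 2.36 and 4.52 CPM with DMSO and at 1.76 and 7.84 CPM with ACBI1, so that the ACBI1 libraries held both the lowest and the highest value (edgeR adjusted p 0.681). Summed H3 counts were 9.32 and 19.7 CPM with DMSO and 7.92 and 18 CPM with ACBI1, which lay in pairs by replicate number and not by group.

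The 11 H4 genes had a median log2 change of -0.23 and none was called. All H4 genes here except H4C7 are known to encode the same protein, so the genes differ mainly in their RNA. H4C8 was at 11.9 and 17.1 CPM with DMSO and at 18.8 and 18.1 CPM with ACBI1, which lay above both (log2 change 0.35, SE 0.23, edgeR adjusted p 0.346). H4C16, the only member on chromosome 12, was at 4.81 and 9.05 CPM with DMSO and at 4.28 and 5.81 CPM with ACBI1 (edgeR adjusted p 0.443). H4C11 had 13 and 14 counts with DMSO and 1 and 4 with ACBI1, again without a call (log2 change -2.35, SE 0.80, edgeR adjusted p 0.0954). Since it passed the count limit only where it was high, neither that change nor its p supports a difference. Its 50-base stretches were shared with another gene, H4C12 first, to 81.2%, so its counts are uncertain. H4C5 was at 1.36 and 3.42 CPM with DMSO and at 0.793 and 1.71 CPM with ACBI1 (edgeR adjusted p 0.309). Summed H4 counts were 21.3 and 34.1 CPM with DMSO and 27.1 and 29.4 CPM with ACBI1, with the ACBI1 libraries between the DMSO libraries.

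In the chromosome 1 cluster that holds H2BC21, all 6 tested genes had a negative log2 change, from -1.38 to -0.05, with a median of -0.93. Those of H4C14 (-0.05, SE 0.45) and H3C13 (-0.19, SE 0.35) were smaller than their SE. These genes share 97.5% and 80.4% of their 50-base stretches with another gene, and by library size only H4C14 was at 0.04. On chromosome 6 there were 25 negative and 12 positive changes among 37 genes, with a median of -0.34. Neighbouring genes are not independent, and the difference between clusters was not tested. Among the genes near the limit of 10 counts in 2 libraries, H1-6 (6, 10, 14 and 2 counts) and H2AC17 (9, 14, 12 and 6 counts) were inside, and H2AC8 (6, 21, 5 and 5 counts) and H3C6 (5, 15, 6 and 5 counts) were outside, in the order DMSO 1, DMSO 2, ACBI1 1 and ACBI1 2. The 23 genes outside had at most 21 counts in a library. Of these, 6 (H2AC1, H2BC1, H2BC10, H3C15, H4C6 and H4C7) stood at 0 counts throughout. The limit of 3 counts there is 0.0349 to 0.0467 CPM by library, in this case without TMM factors. H3C14 and H3C15 share all of their 50-base stretches, so a low count there does not show a low level.

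The spread between replicates had a shared direction. Replicate 2 was above replicate 1 in both groups for 29 of the 46 histone genes (63%), against 32.9% of all genes tested. The median log2 difference, replicate 2 minus replicate 1, was 0.58 with DMSO and 0.48 with ACBI1, and it was 0 in both over all genes. Replicate 2 was at least 2 times replicate 1 in both groups for 7 histone genes, namely H1-3, H1-4, H1-5, H3C1, H3C3, H3C11 and H4C5, or 15.2%, against 2.09% of all genes. For 29 of the 46 (63%) the sizes of the replicate differences, averaged over both groups, exceeded the size of the log2 change. The same held for 37.4% of all genes. Differences between single libraries vary more than those between group means, so only the share over all genes is a like comparison. These are descriptions of 4 libraries, and low counts widen them for the rarer genes.

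**Figure D4:**
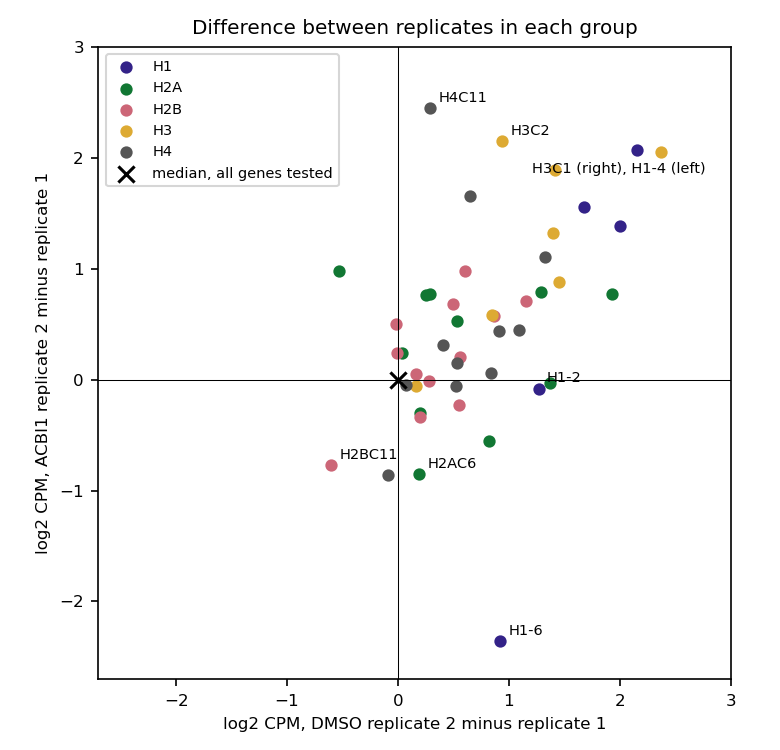
Each point is a histone gene, placed by the log2 difference between replicates with DMSO (horizontal) and with ACBI1 (vertical), and the cross marks the median of all genes tested at 0 on both axes. Points crowd into the upper right, with H1-4 and H3C1 above 2 on both axes, and H2BC11 lies in the lower left.

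Histone genes that are expressed outside DNA replication were set beside these. Of 12 listed genes 10 were tested, 2 were called, both lower (20%, against 17.4% of all genes), and the median log2 change was -0.36. H3-3B, 1 of the genes for the replacement histone H3.3, was at 586 and 550 CPM with DMSO and at 277 and 297 CPM with ACBI1, a log2 change of -0.98 (SE 0.17, edgeR adjusted p 0.0154). H3-3A, which encodes the same protein, was at 202 and 231 CPM with DMSO and at 164 and 167 CPM with ACBI1 and was not called (edgeR adjusted p 0.158). H1-10 was at 293 and 461 CPM with DMSO and at 264 and 336 CPM with ACBI1 (edgeR adjusted p 0.431). None of the 10 was called by edgeR without ACBI1 replicate 1 or without ACBI1 replicate 2, and 1 was called without DMSO replicate 2.

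None of the 5 tested H2A variants of this list was called, and they lay in different directions. H2AX, the variant marked at DNA breaks, was at 131 and 124 CPM with DMSO and at 163 and 190 CPM with ACBI1 (log2 change 0.47, SE 0.17, edgeR adjusted p 0.105). H2AZ1, a variant found at gene starts, was at 149 and 145 CPM with DMSO and at 199 and 216 CPM with ACBI1 (log2 change 0.49, SE 0.16, edgeR adjusted p 0.0810). Scaling by library size only called H2AZ1 higher (log2 change 0.58, edgeR adjusted p 0.0452). H2AZ2, a close relative of H2AZ1, was at 120 and 102 CPM with DMSO and at 85 and 83.5 CPM with ACBI1 (log2 change -0.40, edgeR adjusted p 0.142). H2AJ was at 91.5 and 151 CPM with DMSO and at 59.5 and 80.7 CPM with ACBI1 (log2 change -0.79, edgeR adjusted p 0.108). MACROH2A1, which encodes a variant with a large added domain, had a log2 change of 0.02 and overlapped (edgeR adjusted p 0.935).

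Among 15 genes that make and process histone messages, 2 were called, both higher (13.3%, against 17.4% of all genes), and the median log2 change was 0.15. SLBP, which binds the stem-loop printed above, was at 42.8 and 35.4 CPM with DMSO and at 71.7 and 72.7 CPM with ACBI1, a log2 change of 0.89 (SE 0.17, edgeR adjusted p 0.0198). ZNF473, a zinc finger protein of the machinery that cuts histone messages, rose from 16.8 and 14.3 CPM to 27.0 and 25.7 CPM (log2 change 0.76, SE 0.18, edgeR adjusted p 0.0384). NPAT, the cyclin E target that drives histone transcription, was at 28.6 and 27.9 CPM with DMSO and at 25.4 and 24.1 CPM with ACBI1 (log2 change -0.19, edgeR adjusted p 0.440). CASP8AP2, also known as FLASH and needed for cutting the message, was at 23.4 and 26.3 CPM with DMSO and at 32.8 and 35.1 CPM with ACBI1 (log2 change 0.45, edgeR adjusted p 0.112). None of the 15 was called by edgeR without DMSO replicate 2 or without either of the ACBI1 libraries, and 4 were called without DMSO replicate 1.

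Histone chaperones carry histones to DNA. Of 20 such genes 6 were called, each higher (30%, against 17.4% of all genes called in either direction), and the median log2 change was 0.23. CHAF1B, a subunit of the CAF-1 complex that loads histones behind the replication fork, rose from 11.6 and 8.06 CPM to 32.7 and 32.6 CPM (log2 change 1.74, SE 0.23, edgeR adjusted p 0.00784). CHAF1A, its partner subunit, had a log2 change of 1.29 (edgeR adjusted p 0.0111). TONSL and MMS22L, which work together at damaged replication forks, had log2 changes of 1.18 and 0.99 (edgeR adjusted p 0.0158 and 0.0151). Without ACBI1 replicate 1 or ACBI1 replicate 2, 3 chaperone genes were called.

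Of 20 S phase genes 15 were called, each higher (75%, against 17.4% of all genes called in either direction). All 20 log2 changes were positive, and the median was 1.24. The proliferation marker MKI67 was called higher as well (142 and 155 CPM with DMSO, 231 and 296 CPM with ACBI1, edgeR adjusted p 0.0347). TOP2A, the other listed proliferation marker, was not called (log2 change 0.57, edgeR adjusted p 0.101). The S phase list separated the groups in all 20 genes, while the histone list did so in 17 of 46 (37%). Over all genes tested, 63.2% separated the groups. The lists differ in count level and in replicate spread, with a median SE of 0.19 for S phase genes against 0.44 for the histone genes, and the difference between the lists was not tested.

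**Figure D5:**
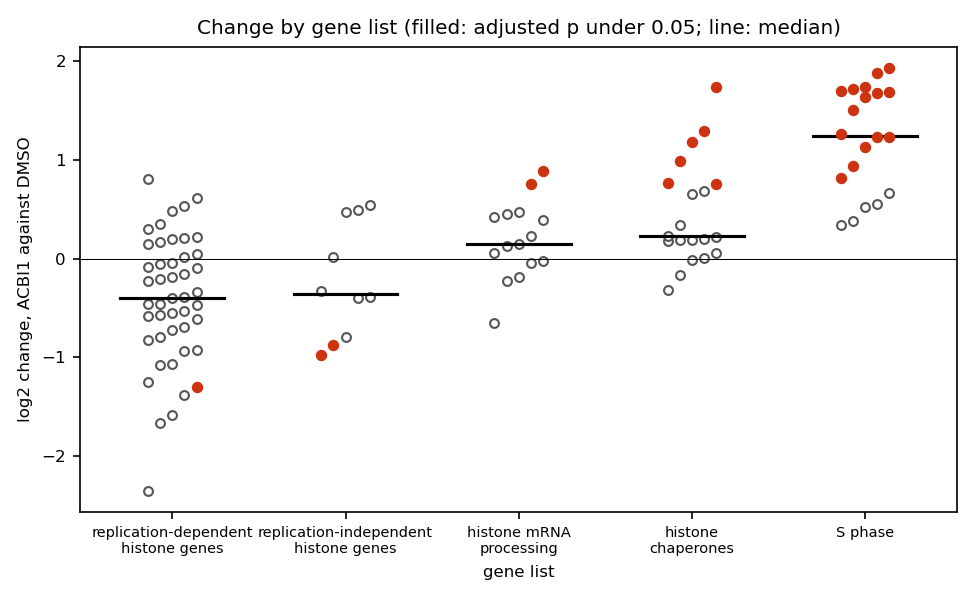
Points show the log2 change of each tested gene by list, filled where called, with a line at the median of the list. The lines lie at -0.39 for replication-dependent histone genes, -0.36 for replication-independent ones, 0.15 for message processing, 0.23 for chaperones and 1.24 for S phase genes.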

How the data were processed

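RNA-seq libraries from H1792 cells were analysed, 2 with DMSO and 2 with ACBI1, grouped by their titles. The deposited files hold raw read counts per gene symbol. The submitters' processing notes list TopHat2 2.1.1, HTSeq 0.11.0 and hg38; the annotation and strand setting are not given in the sources used here. The 5 lines for reads given to no gene (13.9% to 15.4% of reads listed) were left out, and since reads with several alignments are among them, near-identical histone genes can lose reads. Genes were filtered with filterByExpr (minimum count 10, total 15), scaled by TMM and tested in R 4.3.3 by the quasi-likelihood F test of edgeR 4.0.16 (glmQLFit, glmQLFTest, two-sided) on treatment alone, with Benjamini-Hochberg adjustment over 19159 genes. CPM use TMM-scaled library sizes, and an SE is the log2 change divided by the root of the F statistic. Within groups the libraries differed by more than sampling noise (chi-square per degree of freedom 144 for DMSO and 94.9 for ACBI1).

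The histone genes and the lists were chosen with earlier results of these data known. Named were, in each histone type, the gene with the highest mean CPM and the called genes, in each list up to 4 called genes, taken by size of change, and SLBP, NPAT, CASP8AP2, H2AX, H2AZ1, H3-3A, H3-3B and H1-10; of the S phase genes only counts are given. The values of 1 called gene of the replication-independent list are not reported here. Other histone genes described singly, H2AZ2, H2AJ, MACROH2A1, MKI67 and TOP2A were picked after their values were seen. Alternatives were other scalings, filters and thresholds, the replicate number as a block, DESeq2 1.42.0, limma-voom (limma 3.58.1) and each library left out. On simulated counts with the same spread setting for all genes, the edgeR fit called 18.5% of genes changed by a log2 of 1. It called 83.8% of those changed by a log2 of 2. These shares do not carry over to the histone genes, whose median SE was 0.44, against 0.28 over all genes.

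Gene positions and promoters came from RefSeq (GRCh38.p14, the assembly that hg38 names), which matched all 69 symbols for position and 64 for promoters. Transcripts, stem-loops, exon overlap and shared 50-base stretches came from GENCODE release 29, which matched 65; it may not be the annotation behind the counts.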

Additional observations from a re-analysis of the deposited data

How the results depend on the processing

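Of the 46 replication-dependent histone genes, 1 was called, and 0 were called after scaling by library size only, with limma-voom or at an adjusted p threshold of 0.01. Over all genes these 3 settings called 18.9%, 17.3% and 4.09%. DESeq2 called 4 (H2AC20, H2BC21, H2BC4 and H2BC5), or 8.7%, against 23.5% of all genes. Testing every gene with a count called 8, or 17.4%, against 16.8% of all genes. Leaving out 1 library gave 0 to 8. With the replicate number as a block, 11 of the 46 (23.9%) and 7909 of all genes (41.3%) were called. No label ties a replicate number to a shared batch, and 2 pairs cannot establish the pairing. Across 19159 genes the difference between replicates correlated between the groups with r = 0.442, which describes these libraries. H2BC21 had a log2 change of -1.22 (adjusted p 0.0531) by library size only and of -1.26 (adjusted p 0.0503) with limma-voom, and the cause was not tested. Leaving out the members that share sequence, or asking for 10 counts in every library, both chosen after seeing the data, left 1 call.

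Over all genes 3331 were called, 5518 with every gene that had a count, 783 at the threshold of 0.01 and 1379 to 4292 with 1 library left out. The block called 8 of 10 tested replication-independent histone genes (80%) and 7 of 15 processing genes (46.7%), against 41.3% of all genes. The threshold of 0.01 called 0 of each, 1 of 20 chaperone genes (5%) and 9 of 20 S phase genes (45%), against 4.09% of all genes. With 1 library left out the calls were 0 to 3, 0 to 4, 3 to 7 and 12 to 16 in these lists. Without the member with the most counts the log2 ratio of summed counts was -1.46 for H1, -0.07 for H2B and -0.43 for H4. With 1 library left out it ran from -1.13 to 0.22 for H1, from -0.84 to -0.22 for H2B, from -0.88 to 0.47 for H3, from -0.34 to 0.13 for H2A and from -0.27 to 0.41 for H4.

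The median log2 change of the 46 ran from -0.70 to 0.06, the latter without DMSO replicate 2. Leaving out 1 library turned the sign for 23 of the 46 genes, 13 of them without DMSO replicate 2. The log2 changes then ran from -1.03 to 0.23 for H1-2, -0.69 to 0.15 for H2AC6, -0.70 to 0.14 for H3C10, -0.27 to 0.31 for H2AC11, -2.94 to 0.03 for H3C1, -0.97 to 1.20 for H3C2, -0.84 to 0.06 for H4C16 and -0.61 to 0.03 for H1-10. Rare members had few counts, and with 2 libraries a group the genes not called are not shown to be unchanged.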
